A study of Homo sapiens with 54 samples.

Results

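The genes described here are the subunits of the transcription factor NF-kB and the inhibitors that NF-kB induces against itself. Of 10 genes on the list, NFKBIA, NFKBIE, TNFAIP3, TNIP1, NFKB1, NFKB2, REL, RELA and RELB each had 1 probe set that names that gene and no other, so 9 were measured among 19460 probe sets with a single gene symbol. The remaining gene, BIRC3, an inhibitor of apoptosis, had no such probe set and was not analysed here. The study placed 9 human cell lines on Affymetrix Gene 1.0 ST arrays before treatment (0 h, no agent) and after 8 h and 36 h with calcitriol, the hormonally active form of vitamin D. The 4 lymphoblastoid lines GM07019, GM07348, GM10854 and GM12878 are B cells immortalised with Epstein-Barr virus. The 5 other lines were 2 of fibroblasts (AG09309, AG09319), 2 of myeloid leukaemia (HL60, which is promyelocytic, and K562, from a chronic leukaemia in blast crisis) and the liver carcinoma line HepG2. Each of the 27 groups of line and time had 2 arrays, which makes 54. Each line descends from a single donor, so lines of a kind stand for a few donors.

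NF-kB is a family of dimers built from RELA, RELB, REL and the processed products of NFKB1 and NFKB2, which are p50 and p52. In resting cells the inhibitors of the IkB family, among them the products of NFKBIA (IkB-alpha) and NFKBIE (IkB-epsilon), hold dimers in the cytoplasm, and a kinase complex marks them for destruction when a receptor is engaged. Freed dimers switch on, among many other genes, those of their own inhibitors: NFKBIA, NFKBIE, TNFAIP3, whose product A20 edits ubiquitin on signalling adaptors, and TNIP1, an A20-binding partner. In B cells carrying Epstein-Barr virus the viral membrane protein LMP1 keeps both the canonical arm, which works through RELA, REL and p50, and the non-canonical arm, which works through RELB and p52, active. Several of these genes are themselves known targets of NF-kB, and calcitriol acts through the vitamin D receptor, a different DNA-binding factor.

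The RefSeq promoter table (GRCh38.p14) held windows for 8 of the 10 genes, 13 windows in all because some genes have several starts, and none for NFKBIE or RELB. The 250 bases before each start were searched on both strands for the NF-kB consensus, which is GGG, a purine, any base, A or T, a pair of pyrimidines and CC, or its reverse complement. It occurred in 8 of the 13 windows, against 5.21% of the 35116 windows in the table. A window with several matches was counted once, and overlapping matches on the 2 strands were kept. The direct repeat with a spacer of 3 bases that the vitamin D receptor is known to bind, searched by its consensus on both strands, occurred in 0 of the 13 and in 0.0655% of all windows. A match is only a match of letters. The window of NFKBIA is shown whole because this gene changed in more comparisons than any other member. It lies at chr14:35404750-35404999 on the minus strand, with the consensus in capitals from 81 to 72 bases before the start.
NFKBIA: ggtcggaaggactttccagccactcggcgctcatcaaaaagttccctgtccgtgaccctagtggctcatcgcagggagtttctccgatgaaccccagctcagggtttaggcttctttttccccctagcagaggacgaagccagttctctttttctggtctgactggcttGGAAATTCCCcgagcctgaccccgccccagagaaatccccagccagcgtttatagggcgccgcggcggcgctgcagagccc

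For the other measured members with a match, the stretch around it is given to show its letters and flanks, again with the consensus, by which the stretches were chosen, in capitals and each written along its gene's strand. TNFAIP3 carried a pair of sites side by side at chr6:137867188-137867217 (plus strand), and TNIP1 a site at chr5:151081057-151081086 (minus strand). NFKB1 had a site at chr4:102501300-102501329 (plus strand), and REL one at chr2:60881518-60881546 (plus strand), which reads as the consensus on both strands. NFKB2 had sites before 2 of its starts, of which those nearest the middle start, at chr10:102394462-102394490 and chr10:102394490-102394519 (plus strand), are given. The windows of RELA held no match.
TNFAIP3: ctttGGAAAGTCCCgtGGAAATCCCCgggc
TNIP1: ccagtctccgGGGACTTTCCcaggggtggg
NFKB1: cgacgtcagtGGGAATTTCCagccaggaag
NFKB2 first site: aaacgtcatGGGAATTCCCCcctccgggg
NFKB2 second site: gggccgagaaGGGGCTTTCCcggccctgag
REL: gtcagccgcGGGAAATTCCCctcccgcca

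Levels are log2 values made by the RMA method, so a difference of 1 is a doubling, and they are compared between samples of the same probe set, not between genes. Array medians ran from 4.98 to 5.31, and paired arrays of a group correlated with a median r of 0.987. In the 3 groups whose arrays correlated least, the array less like the rest of its line is said here to stand apart. These arrays were K562 at 36 h (replicate 1), HepG2 at 0 h (replicate 2) and AG09319 at 8 h (replicate 2). The r within their groups was 0.970, 0.954 and 0.897. The number of 3 was set by this rule, and K562 at 0 h (r = 0.979) came close to K562 at 36 h. Each labelled cell type had markers that were high where the label places them. MPO was at 11.7 in HL60, ALB at 10.95 in HepG2, HBZ at 11.4 in K562 and COL1A1 at 11.6 in both fibroblast lines. MS4A1 lay between 9.47 and 10.02 in the lymphoblastoid lines. Not every listed marker was high. At 0 h the lowest of 5 erythroid markers in K562 was at 5.06, and the lowest of 7 B cell markers in GM10854 at 5.07. The 0 h arrays of AG09309 went against their label in part, since MS4A1, which encodes the B cell antigen CD20, was at 8.11 there and at 3.33 and 2.98 after 8 h and 36 h. Tests used limma, with p-values adjusted by the Benjamini-Hochberg method over all 19460 probe sets and a threshold of 0.05, and an error after ± is a standard error. No untreated culture of the later times was analysed here, so calcitriol and time in culture cannot be told apart, and the changes at 8 h and 36 h share the 0 h arrays. The titles mark the 2 arrays of a group BR1 and BR2, and the labels do not spell out the mark or say that the arrays came from separate cultures, so a p-value for a single line measures the spread between arrays, which may be technical. In bulk RNA a change in the share of cells of a type and a change of RNA per cell cannot be told apart.

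Before treatment, 8 of the 9 members had a higher mean in the 4 lymphoblastoid lines than in the 5 other lines, and RELA was the exception. With the line as replicate, 3 members passed the test, TNIP1, NFKB1 and NFKB2, where 2.22% of all probe sets were called higher. The median difference of the 9 members was 1.28, against 0.01 over all probe sets. NFKB1 missed the threshold without GM07348 (adjusted p = 0.0567) or GM12878 (0.0525), and in the 3 lymphoblastoid and 3 other lines whose titles share a style no member passed (0 called by limma, adjusted p from 0.0930 to 0.115 for these genes). Without AG09309 5 members passed, and without HepG2 or without the 3 arrays that stood apart 6 did. The share of all probe sets called in these settings is not given here.

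Among the inhibitors, TNIP1 was the one whose 0 h difference passed. Its mean was 7.72 ± 0.19 (SD, n = 4) in the lymphoblastoid lines and 6.36 ± 0.38 (SD, n = 5) in the others, a difference of 1.37 ± 0.21 (adjusted p = 0.00757, 2.58-fold). The 0 h arrays of the lymphoblastoid lines read 7.69 and 7.57 in GM07019, 8.08 and 7.82 in GM07348, 7.49 and 7.54 in GM10854, and 7.98 and 7.61 in GM12878. In the other lines the highest values were 6.89 and 6.76 in AG09309 and the lowest 5.86 and 5.74 in K562, so no array of one kind reached the other kind. How many of all probe sets parted the kinds in this way is not given here.

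TNFAIP3 had the widest difference in mean, 2.01 ± 0.50, which did not pass (adjusted p = 0.0706). It was at 8.90 in GM12878, 8.62 in GM07348, 7.97 in GM07019 and 7.92 in GM10854, and between 5.34 (K562) and 6.33 (HepG2) in 4 of the other lines. The fifth, AG09309, read 8.10 and 8.09 on the same arrays that carried MS4A1, and its mean of 8.09 did not differ from that of GM07019 beyond the spread between arrays (0.12, adjusted p = 0.707). At 8 h and 36 h, with MS4A1 at 3.33 and 2.98, TNFAIP3 was still at 7.70 and 7.55 in AG09309. It was at 5.65 and 5.74 in AG09319 at these times. The part of the B cell transcripts in its 0 h level was not tested. Without AG09309 the 0 h difference between the kinds was 2.45 (adjusted p = 0.00308).

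NFKBIA had lymphoblastoid means from 8.69 (GM07019) to 9.39 (GM07348), then AG09309 at 8.46 and HepG2 at 8.31, then AG09319 at 7.21, HL60 at 6.45 and K562 at 6.42. The difference between the kinds, 1.74 ± 0.45, did not pass (adjusted p = 0.0859) and without AG09309 was 2.01 (adjusted p = 0.0417). Without HepG2 it was 1.98 (adjusted p = 0.0458). In the order of the lines, the steps from HepG2 to AG09319 (1.10, adjusted p = 4.49e-06) and from AG09319 to HL60 (0.76, adjusted p = 0.000805) passed, and the other neighbours did not differ beyond the spread between arrays.

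NFKBIE varied less, from 5.82 in AG09319 to 6.94 in GM12878, and no step between neighbours passed. Its 0 h difference between the kinds was 0.65 ± 0.16 (adjusted p = 0.0737).

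**Figure D1:**
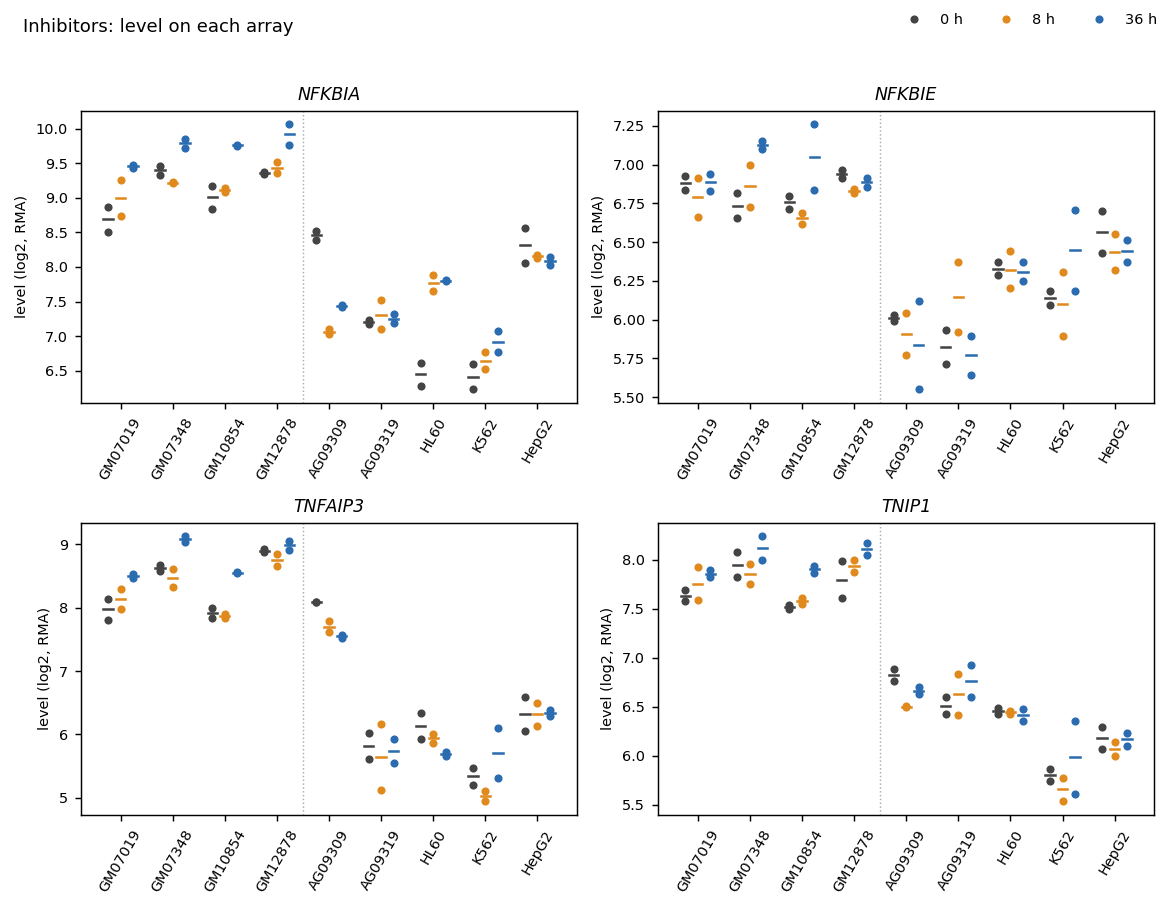
Level (log2, RMA) of 4 NF-kB inhibitors on each array, by cell line along the horizontal axis; dots are arrays, short bars the mean of the 2 arrays, colours the time, and the dotted line parts the 4 lymphoblastoid lines from the 5 others. NFKBIA at 36 h lies above both 0 h arrays in every lymphoblastoid line, in HL60 and in K562, and below them in AG09309.

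Of the subunits, NFKB1 and NFKB2, the genes of p50 and p52, passed at 0 h. NFKB1 averaged 8.40 ± 0.23 (SD, n = 4) in lymphoblastoid lines and 7.11 ± 0.39 (SD, n = 5) in the others, a difference of 1.28 ± 0.22 (adjusted p = 0.0130). NFKB2 averaged 7.41 ± 0.16 (SD, n = 4) and 6.19 ± 0.35 (SD, n = 5), a difference of 1.21 ± 0.19 (adjusted p = 0.00879). For both genes the lowest lymphoblastoid line differed from the highest other line, NFKB1 by 0.75 between GM10854 and AG09319 (adjusted p = 0.00808) and NFKB2 by 0.57 between GM07019 and AG09309 (adjusted p = 0.00365).

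REL, the haematopoietic subunit c-Rel, did not divide the lines in the same way. It was at 7.11 to 7.56 in the lymphoblastoid lines, 6.78 in HL60, 6.09 in K562, 5.78 in AG09309, 5.09 in AG09319 and 4.61 in HepG2. The step from GM10854 to HL60 (0.33, adjusted p = 0.235) did not pass, whereas those from HL60 to K562 (0.70, adjusted p = 0.00421), AG09309 to AG09319 (0.69, adjusted p = 0.0135) and AG09319 to HepG2 (0.47, adjusted p = 0.0318) did. The lymphoblastoid difference of 1.68 ± 0.39 lay just over the threshold (adjusted p = 0.0520), and without HL60 it was 1.96 (adjusted p = 0.00881).

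RELA, the p65 subunit found in most cell types, stood at 7.05 (HepG2) to 7.69 (AG09309), with no step between neighbours passing and a difference between the kinds of -0.17 ± 0.16 (adjusted p = 0.788). RELB, the partner of p52, was at 6.18 to 6.48 in lymphoblastoid lines and 5.68 to 6.01 in the others, again with no step between neighbours passing (difference 0.49 ± 0.13, adjusted p = 0.0980).

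Over the 20 pairs of a lymphoblastoid with another line at 0 h, fitted with all 54 arrays, TNIP1, NFKB1 and NFKB2 differed in 20, REL in 19, NFKBIA in 18, TNFAIP3 in 17, NFKBIE in 14, RELB in 8 and RELA in 3. Over all probe sets, 29.7% of such comparisons were called. Among the 6 pairs of lymphoblastoid lines NFKBIA and TNFAIP3 each differed in 2 and the other 7 members in 0, where 2.1% of all comparisons were called. Over all 36 pairs the members' counts ran from 6 for RELA to 28 for NFKBIA and REL, at a background of 27.2%. The NFKBIA calls among lymphoblastoid lines set GM07019 below GM07348 (0.71, adjusted p = 0.0301) and GM12878 (0.67, adjusted p = 0.0248). The TNFAIP3 calls set GM12878 above GM07019 (0.93, adjusted p = 0.0156) and GM10854 (0.99, adjusted p = 0.00985).

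**Figure D2:**
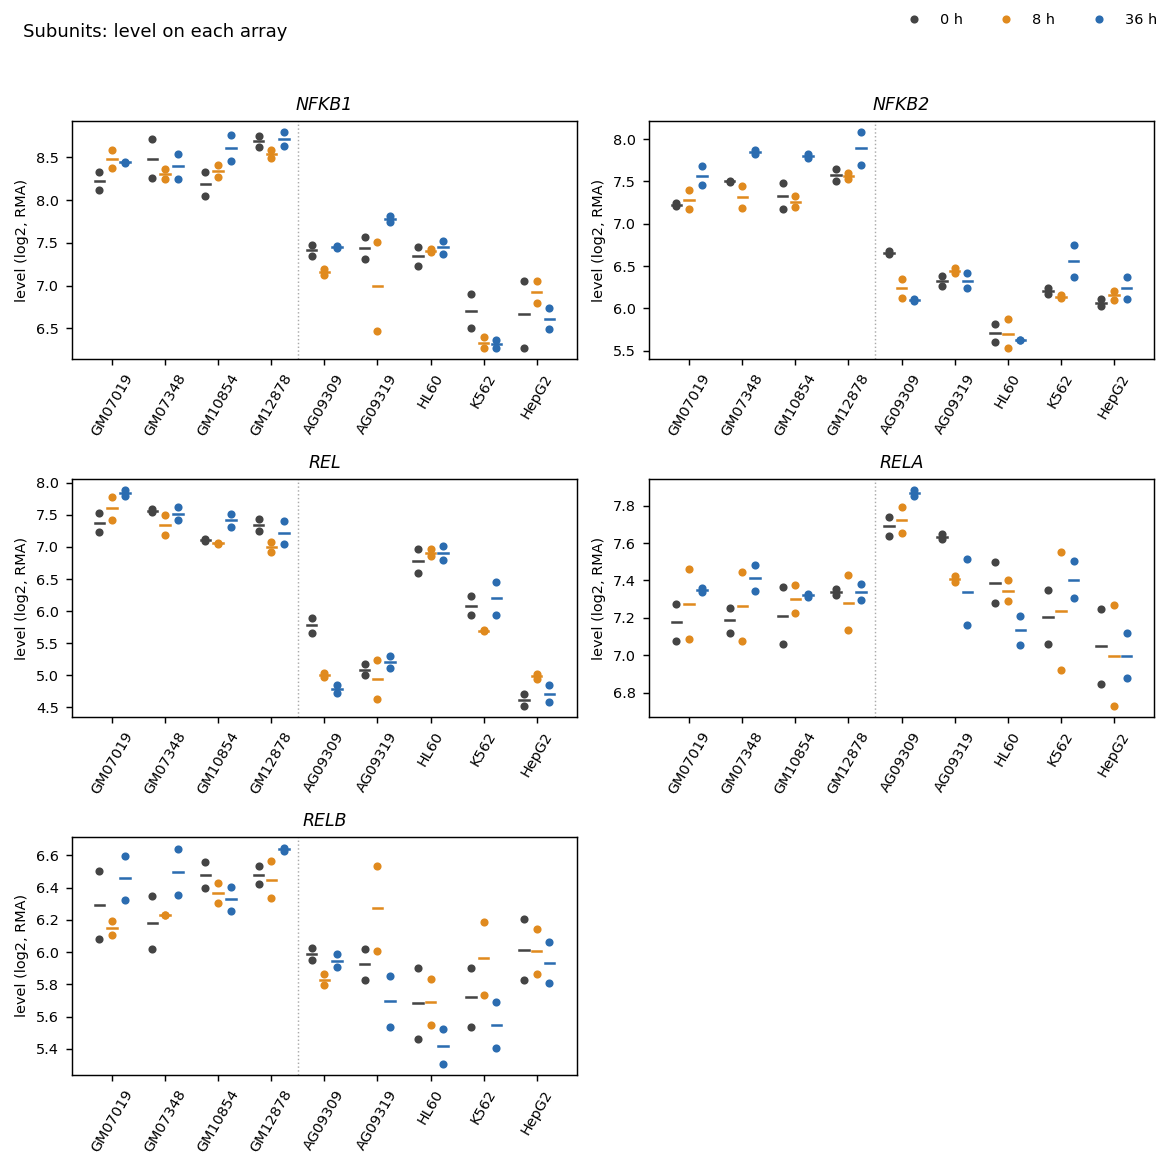
Level (log2, RMA) of 5 NF-kB subunits on each array, by cell line; dots are arrays, short bars the mean of the 2 arrays, colours the time. NFKB1 and NFKB2 are higher in the 4 lymphoblastoid lines left of the dotted line at every time, REL is next highest in HL60, and RELA shows no such division.

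After 36 h with calcitriol, the lymphoblastoid lines had higher levels of NFKBIA, TNFAIP3 and NFKB2. NFKBIA was 1.53-fold, TNFAIP3 1.35-fold and NFKB2 1.29-fold the 0 h level. The other 6 members did not pass, and no member was called at 8 h. All 9 differences were above 0, with a median of 0.16 against -0.01 over all probe sets. The 3 calls compare with 1.06% of all probe sets called higher.

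NFKBIA read 8.87 and 8.50 at 0 h in GM07019, 8.74 and 9.26 at 8 h, and 9.44 and 9.47 at 36 h. In GM07348 it went from 9.46 and 9.33 through 9.22 and 9.21 to 9.85 and 9.72, and in GM10854 from 9.17 and 8.84 through 9.08 and 9.13 to 9.75 and 9.77. In GM12878 the pairs were 9.35 and 9.37, 9.51 and 9.36, and 10.06 and 9.77. In all 4 lines both arrays at 36 h lay above both at 0 h, and above both at 8 h. The share of all probe sets that did the same is not given here. The mean rise was 0.62 ± 0.09 (adjusted p = 0.000754), from 0.39 in GM07348 to 0.77 in GM07019.

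TNFAIP3 read 8.14 and 7.81 at 0 h and 8.48 and 8.53 at 36 h in GM07019, 8.67 and 8.58 against 9.13 and 9.03 in GM07348, and 7.99 and 7.84 against 8.57 and 8.55 in GM10854. In GM12878, which started highest, it read 8.92 and 8.88 against 9.06 and 8.92. The increase was 0.53, 0.46 and 0.64 in the first 3 lines and 0.09 in GM12878, where the times were close to each other. The mean rise was 0.43 ± 0.09 (adjusted p = 0.0289).

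TNIP1, A20's partner, was higher by 0.27 ± 0.08, which did not pass (adjusted p = 0.113), although its difference was above 0 in 4 of 4 lines (0.17 to 0.38). NFKBIE differed by 0.16 ± 0.09 (adjusted p = 0.416), with values near 0 in GM07019 (0.00) and GM12878 (-0.05) and of 0.39 and 0.29 in GM07348 and GM10854.

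NFKB2 was the one subunit whose rise passed, at 0.37 ± 0.08 (adjusted p = 0.0251). Its arrays read 7.20 and 7.25 at 0 h and 7.46 and 7.68 at 36 h in GM07019, 7.49 and 7.51 against 7.82 and 7.87 in GM07348, 7.17 and 7.48 against 7.82 and 7.78 in GM10854, and 7.50 and 7.64 against 8.08 and 7.70 in GM12878. The 36 h arrays were above the 0 h arrays in every one of these lines, again without a share of all probe sets to set beside it. The increases lay close together, at 0.34, 0.35, 0.47 and 0.32.

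The remaining subunits gave 0.14 ± 0.09 for NFKB1, 0.15 ± 0.10 for REL, 0.13 ± 0.08 for RELA and 0.12 ± 0.09 for RELB (adjusted p from 0.452 to 0.523). REL was the least even of them, at 0.46 in GM07019 and 0.30 in GM10854 but -0.04 in GM07348 and -0.12 in GM12878.

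Of the 3 calls, NFKBIA passed without any single line (adjusted p up to 0.0178, without GM10854). TNFAIP3 did not pass without GM07019 (adjusted p = 0.161) or GM10854 (0.314), nor NFKB2 without GM07019 (0.106), GM10854 (0.266) or GM12878 (0.132). After quantile normalization TNFAIP3 (adjusted p = 0.0886) and NFKB2 (0.0663) also missed the threshold. B cell markers rose in the same comparison: all 7 measured were above 0 and 3 passed, CD79A by 1.30, CR2 by 0.77 and PAX5 by 0.46, and their summed log2 level ran from 52.4 to 53.95 at 0 h and from 54.9 to 57.7 at 36 h. Their part in the members' changes was not tested.

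**Figure D3:**
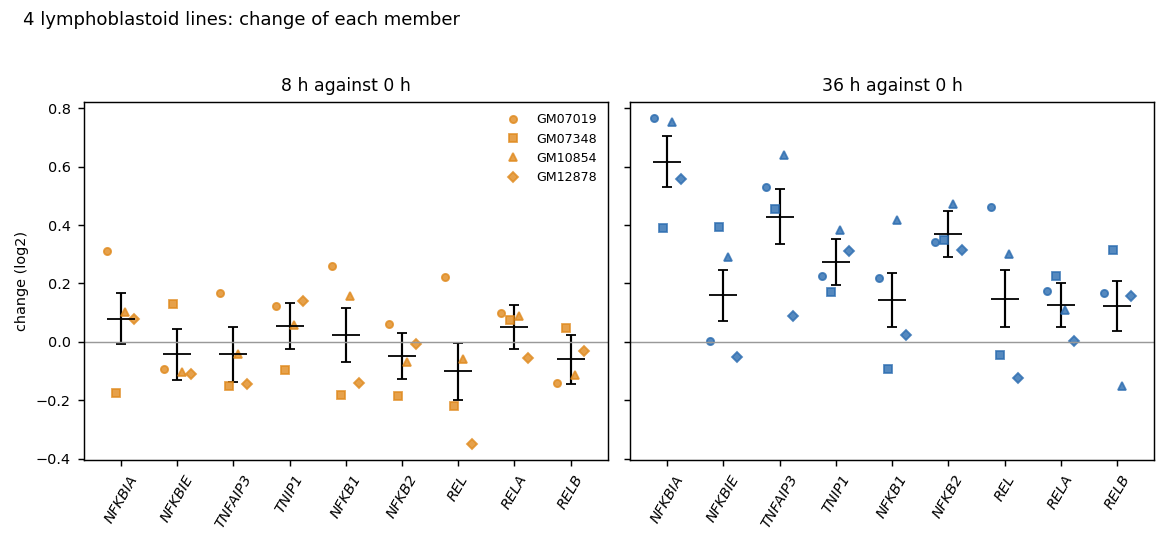
Change (log2) of each member in the 4 lymphoblastoid lines at 8 h and at 36 h against 0 h; symbols are lines, black bars the mean over the 4 lines with its standard error from limma. At 8 h the means lie near 0, and at 36 h those of NFKBIA, TNFAIP3 and NFKB2 (0.62, 0.43 and 0.37) passed the test.

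At 8 h the 9 members ranged from -0.10 ± 0.10 (REL) to 0.08 ± 0.09 (NFKBIA) in the lymphoblastoid lines, with 4 above 0 and a median of -0.04. None was called (0 members in limma's test, and 0 at an unadjusted p under 0.05), where 0.0257% of all probe sets were. Between 8 h and 36 h, a comparison that does not use the 0 h arrays, the same genes passed, NFKBIA by 0.54 ± 0.09 (adjusted p = 0.0132), TNFAIP3 by 0.47 ± 0.09 (adjusted p = 0.0430) and NFKB2 by 0.42 ± 0.08 (adjusted p = 0.0338), against 0.277% of all probe sets called higher. It shares the 36 h arrays with the comparison against 0 h. Its calls depended on single lines, since 0 members passed without GM10854 or GM12878 by limma, and 1 without GM07019 or GM07348. After quantile normalization 1 passed. For these settings the share of all probe sets called is not given here.

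Over all 9 lines no member passed in limma's test at 36 h (0 called, where 0.468% of all probe sets were). At an unadjusted p under 0.05 there were 2 members, beside 2710 of the 19460 probe sets. NFKBIA had the largest mean, 0.35 ± 0.16 (adjusted p = 0.347), and TNIP1 was at 0.14 ± 0.06 (adjusted p = 0.280). At 8 h 0 members were called, 0 at an unadjusted p under 0.05, and 0% of all probe sets. A test asked whether the lymphoblastoid lines changed by another amount than the 5 others. It called 0 members at 36 h (0.0154% of all probe sets) and 0 at 8 h (0%). An unadjusted p under 0.05 was reached by 3 members at 36 h, beside 1465 of the 19460 probe sets. At 8 h it was reached by 0 members, beside 750. The differences at 36 h were 0.56 ± 0.17 for TNFAIP3 (adjusted p = 0.429), 0.39 ± 0.15 for NFKB2 (adjusted p = 0.592), 0.48 ± 0.33 for NFKBIA (adjusted p = 0.770) and 0.28 ± 0.13 for RELB (adjusted p = 0.655). A rise particular to lymphoblastoid lines was therefore not shown for any member.

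Single lines, each tested as 2 arrays against 2 with a spread shared over all groups, gave 3 member calls at 8 h and 4 at 36 h, in HL60 and AG09309. Over the 9 lines 0.233% of probe set comparisons were called at 8 h and 1.38% at 36 h. In HL60 NFKBIA rose, and in AG09309 NFKBIA, REL and NFKB2 fell. Without AG09319 8 h replicate 1, which leaves the array that stood apart as the only one of its group, 7 were called at 8 h, and without the 3 arrays that stood apart 7 were called at 36 h. Without replicate 1 of AG09309 at 0 h, or either of its arrays at 8 h, 2 were called at 8 h.

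HL60 is known to mature towards monocytes under calcitriol. There NFKBIA read 6.28 and 6.62 at 0 h, 7.66 and 7.89 at 8 h, and 7.80 and 7.81 at 36 h. It was thus 2.50-fold higher by 8 h, a rise of 1.32 ± 0.18 (adjusted p = 2.45e-05), and 2.55-fold higher at 36 h (1.35 ± 0.18, adjusted p = 5.02e-06), with 0.03 ± 0.18 between the later times. Of all probe sets, 0.231% were called higher in HL60 at 8 h and 0.714% at 36 h.

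No other member passed in HL60. TNFAIP3, the other inhibitor whose lymphoblastoid rise passed, read 5.93 and 6.34 at 0 h, 5.87 and 6.002 at 8 h, and 5.72 and 5.66 at 36 h there (-0.45 ± 0.23 at 36 h, adjusted p = 0.743). NFKB2 gave -0.08 ± 0.15 (adjusted p = 0.999). Monocyte markers moved in the same arrays: of 6 measured, 2 passed at each time, CD14 (5.98, 8.57 and 10.1 at 0, 8 and 36 h) and ITGAM (6.21, 7.27 and 7.95), and the summed level of the list was 42.0, 45.5 and 48.7. Their part in the NFKBIA rise was not tested.

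In K562, the other myeloid leukaemia line, NFKBIA read 6.60 and 6.23 at 0 h, 6.77 and 6.53 at 8 h, and 7.08 and 6.77 at 36 h, and its change of 0.51 at 36 h did not pass (adjusted p = 0.405); the median of all probe sets there was 0.13. The difference between the HL60 and K562 changes, a comparison chosen after the values were seen, was 1.09 ± 0.25 at 8 h (adjusted p = 0.111; 0.0462% of all probe sets called) and 0.85 ± 0.25 at 36 h (adjusted p = 0.299; 0.185% called). It did not pass at either time. One of the K562 arrays at 36 h was among those that stood apart.

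**Figure D4:**
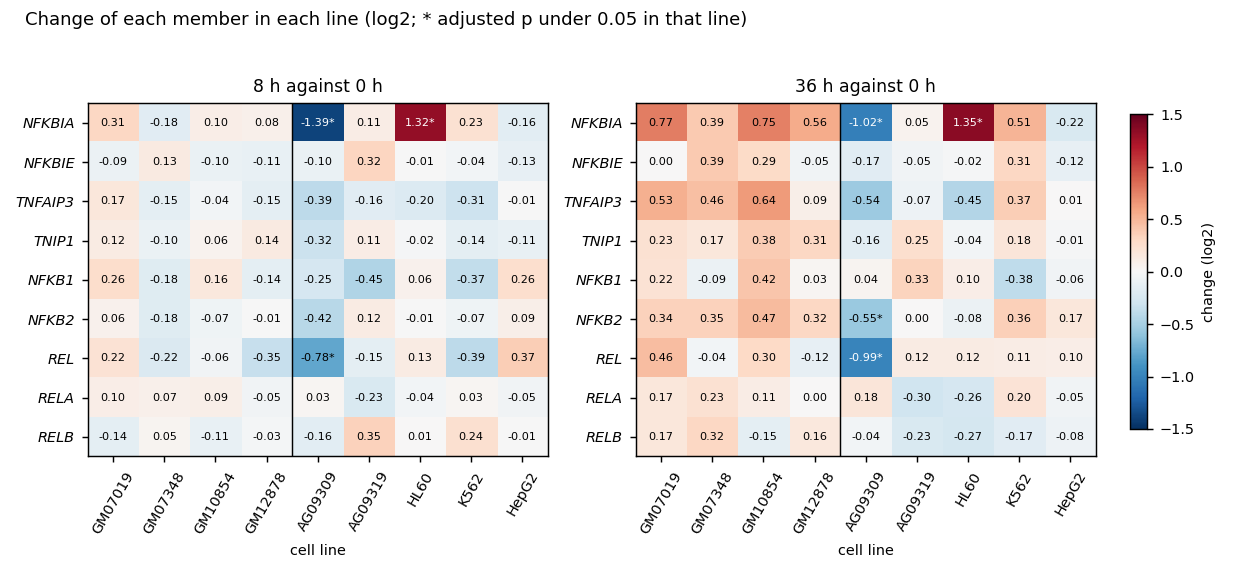
Change (log2) of each member in each line at 8 h (left) and 36 h (right) against 0 h, as colour and number; an asterisk marks an adjusted p under 0.05 in that line. The calls are NFKBIA in HL60 (1.32 and 1.35), and NFKBIA (-1.39 and -1.02), REL (-0.78 and -0.99) and NFKB2 (-0.55 at 36 h) in AG09309.

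In AG09309 NFKBIA read 8.52 and 8.39 at 0 h, 7.10 and 7.03 at 8 h, and 7.45 and 7.42 at 36 h. It fell by 1.39 on the log2 scale at 8 h (± 0.18, adjusted p = 9.33e-07) and by 1.02 at 36 h (± 0.18, adjusted p = 0.000188). REL read 5.89 and 5.66, then 4.97 and 5.03, then 4.73 and 4.85, a fall of -0.78 ± 0.19 at 8 h (adjusted p = 0.0146) and -0.99 ± 0.19 at 36 h (adjusted p = 0.000519). For both genes the 0 h arrays lay above all 4 later arrays, and the share of all probe sets that did so is not given here.

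NFKB2 went from 6.64 and 6.67 through 6.13 and 6.35 to 6.12 and 6.09, a change of -0.42 ± 0.15 at 8 h (adjusted p = 0.311) and a fall of -0.55 ± 0.15 at 36 h (adjusted p = 0.0251). TNFAIP3 read 8.10 and 8.09, 7.61 and 7.78, and 7.57 and 7.53, which did not pass (-0.54 ± 0.23 at 36 h, adjusted p = 0.220), and NFKBIE, TNIP1, NFKB1, RELA and RELB were not called at either time. In AG09309 1.42% of all probe sets were called lower at 8 h and 2.26% at 36 h. NFKB2 at 36 h and REL at 8 h missed the threshold without single AG09309 arrays (adjusted p up to 0.180 and 0.362), and with arrays centred on their median (0.0649 and 0.0503). NFKB2 also missed it when AG09309 was fitted alone (0.0543). Between 8 h and 36 h 0 members were called in AG09309 by limma (0.37 ± 0.18 for NFKBIA, adjusted p = 0.510).

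The falls in AG09309 rest on 0 h arrays that carried B cell transcripts. All 7 measured B cell markers were higher there than at 36 h; 4 fell at 8 h and 7 at 36 h, MS4A1 by the most (-4.77 and -5.13). At 0 h 5 of the 7 lay above all 4 other lines that are not lymphoblastoid. The summed level of the list was 41.1 at 0 h, 30.8 at 8 h and 29.2 at 36 h, between the 52.4 to 53.95 of the lymphoblastoid lines and the 31.2 to 35.2 of the 4 other lines at 0 h. Fibroblast markers were high at every time (summed level 76.8, 79.0 and 80.4). Immediate early genes, chosen after the values were seen, were also higher at 0 h. FOS, FOSB, EGR1, JUN and ATF3 fell by 8 h in AG09309 and did not pass in AG09319. FOS was at 9.87 at 0 h and 5.75 at 8 h in AG09309, against 5.53 and 5.73 in AG09319. The part of either in the members' falls was not tested.

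In AG09319, the other fibroblast line, whose 0 h arrays had MS4A1 at 3.26, NFKBIA read 7.23 and 7.18 at 0 h, 7.52 and 7.11 at 8 h, and 7.20 and 7.32 at 36 h. REL read 5.17 and 5.001, 5.24 and 4.63, and 5.11 and 5.30. No member was called there. The NFKBIA change in AG09309 minus that in AG09319, a difference chosen after the values were seen, was -1.497 ± 0.25 at 8 h (adjusted p = 0.000240; 1.47% of all probe sets called) and -1.07 ± 0.25 at 36 h (adjusted p = 0.0117; 2.34% called), and that of REL was -0.63 ± 0.26 at 8 h, which did not pass (adjusted p = 0.332), and -1.11 ± 0.26 at 36 h (adjusted p = 0.0121). At 8 h and 36 h NFKBIA was at 7.07 and 7.43 in AG09309, near the 7.21 of untreated AG09319. TNFAIP3, at 7.70 and 7.55 in AG09309 at these times, stayed above the 5.81 of untreated AG09319. These levels were not tested against each other, and the cause of the difference between the fibroblast lines was not tested.

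**Figure D5:**
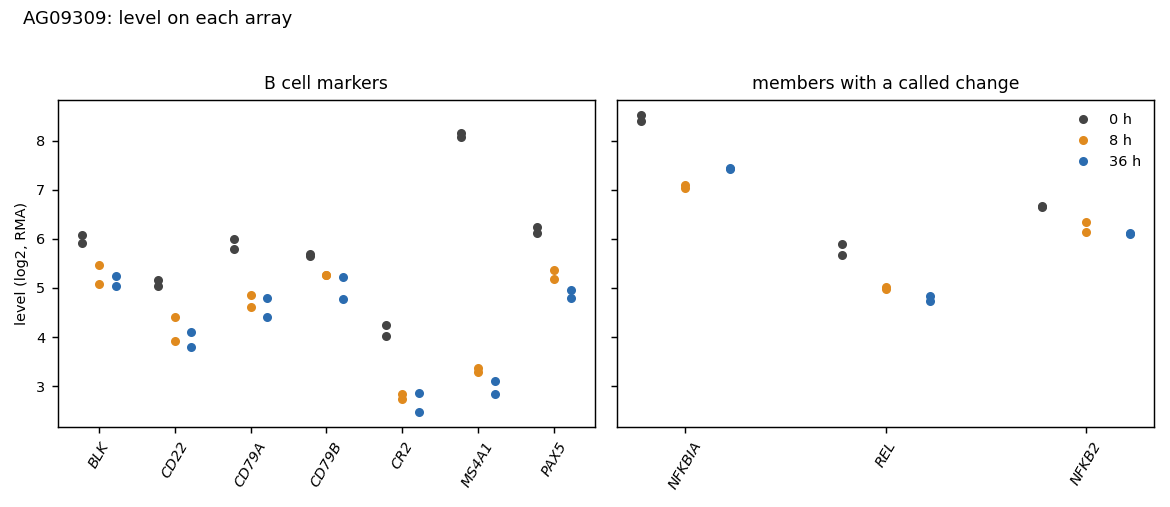
Level (log2, RMA) on each array of AG09309, with 7 B cell markers on the left and the 3 members called in this line on the right; dots are arrays and colours the time. On both sides the 0 h arrays lie highest: MS4A1 was at 8.11 at 0 h and 3.33 at 8 h, and NFKBIA at 8.46 and 7.07.

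In HepG2 no member was called. NFKBIA read 8.56 and 8.06 at 0 h, 8.13 and 8.17 at 8 h, and 8.14 and 8.03 at 36 h, and the spread at 0 h includes an array that stood apart. REL gave 0.37 at 8 h, from 4.70 and 4.52 to 5.03 and 4.94, without passing.

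Other genes of the pathway, on lists of 94 genes of which 83 were measured, were examined for the same comparisons. In the lymphoblastoid lines at 36 h, 6 were higher and 0 lower by limma's test, at the background of 1.06% given above for calls higher. TNFRSF17, the receptor BCMA for the B cell survival factors BAFF and APRIL, rose most (1.08 ± 0.10, adjusted p = 9.81e-06), followed by LTA, the cytokine lymphotoxin-alpha (0.64 ± 0.11, adjusted p = 0.00354).

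Of the 26 measured NF-kB target genes 3 rose, the adhesion molecules CD44 (0.43 ± 0.09, adjusted p = 0.0142) and ICAM1 (0.41 ± 0.09, adjusted p = 0.0296) and CFLAR, an inhibitor of caspase-8 (0.38 ± 0.08, adjusted p = 0.0233). The median of the target genes was 0.18, with 24 of 26 above 0. Of 21 kinases and adaptors IRAK2 rose (0.35 ± 0.08, adjusted p = 0.0417; median of the list 0.11). Of the 4 other IkB family genes and the 12 other negative regulators 0 passed, with medians of 0.02 and 0.12. At an unadjusted p under 0.05 these lists had 0 and 4 genes, beside 2860 of all 19460 probe sets.

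At 0 h, 18 of the 83 were higher in lymphoblastoid than in other lines and 3 lower, where 2.22% and 0.781% of all probe sets were. Target genes had the highest median, 1.01, with 9 higher and 1 lower of 26. Receptors and ligands had 5 higher and 2 lower of 20 (median 0.32), and kinases and adaptors 3 higher of 21 (0.16). Other negative regulators had 1 higher of 12 (0.15) and the other IkB genes 0 of 4 (0.32). Of those 4 genes 1 had an unadjusted p under 0.05, beside 2580 of all 19460 probe sets.

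In HL60, target genes accompanied NFKBIA: CFLAR (6.28, 7.35 and 7.43 at 0, 8 and 36 h), TNFAIP2 (6.21, 7.06 and 6.93) and PLEK (7.77, 8.85 and 9.06) rose at both times, 3 of the 26 where 0.231% of all probe sets at 8 h and 0.714% at 36 h were called higher, and the other 23 were not called. The list median was 0.10 at 8 h and 0.01 at 36 h.

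In AG09309 16 of the 83 fell at 8 h, where 1.42% of all probe sets were called lower, and 15 fell at 36 h, where 2.26% were. At 36 h 1 rose, TNFRSF1A, a receptor for tumour necrosis factor, by 0.55 (2.65% of all probe sets were called higher). Those that fell included NFKBIZ, the nuclear IkB-zeta (-1.57 and -1.60), and the target genes PLEK (-3.44 and -3.75), CCND2 (-3.61 and -3.34), the transcription factor IRF4 (-2.86 and -2.71), the chemokine receptor CCR7 (-2.28 and -2.17), CD83 (-1.29 and -1.09) and ICAM1 (-0.96 and -0.84). Among receptors and ligands were TLR7 (-2.35 and -2.41), LTA (-1.47 and -1.85), TNFRSF17 (-1.88 and -1.61) and the cytokine BAFF, encoded by TNFSF13B (-0.88 and -0.92). TNFRSF13B, another receptor for BAFF (-0.74), and the adaptor TRAF1 (-1.03) fell at 36 h and were not called at 8 h. All these falls start from the 0 h arrays that carried B cell transcripts. There IRF4 was at 7.58, PLEK at 7.61 and CCR7 at 7.34. At 0 h they were at 5.02, 3.91 and 4.86 in AG09319 and at 10.09, 8.72 and 8.08 in GM07019. The other genes named above that fell also lay between these lines, except NFKBIZ. NFKBIZ, at 6.74, lay above both lines (5.47 and 6.04). So did JUNB, a target gene that fell by -1.02 and -0.75, at 7.93 (6.88 and 7.07). PSMB9, a target gene that fell by -1.56 and -0.81, lay below both, at 6.66 (6.82 and 8.44). The part of the B cell transcripts in these falls was not tested.

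Elsewhere 4 rose in AG09319 at 36 h (IL1R1 by 1.27, TNFAIP8 by 0.80, IL15 by 0.78 and TNFRSF1A by 0.51; 1.78% of all probe sets higher), SOD2 in HepG2 (1.02; 1.05% higher) and TNFRSF17 in GM12878 (1.27; 0.0514% higher).

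Across the 27 group means, which share lines and so are not independent, TNIP1 and NFKB1 were the members most alike (r = 0.966), followed by TNFAIP3 with TNIP1 (0.912) and TNIP1 with NFKB2 (0.906). REL had its closest fellow member in NFKBIE (0.78). RELA correlated with no member above 0.15, and its strongest relation was an inverse one with NFKBIE (-0.46). Among all probe sets the patterns nearest to each member were those of OAS1, GATM and ABCD2 for NFKBIA (r = 0.941, 0.929 and 0.929), PELI1, NAPSB and CCDC69 for NFKBIE (0.948, 0.938 and 0.937), and B4GALT6, RADX and CAMK4 for TNFAIP3 (0.935, 0.931 and 0.930). They were SP110, NFKB1 and TAP1 for TNIP1 (0.975, 0.966 and 0.965), PLCL2, TNIP1 and PSMB9 for NFKB1 (0.974, 0.966 and 0.962), and CD40, APOBEC3G and ERAP1 for NFKB2 (0.974, 0.963 and 0.959). For REL they were CELF2, HCLS1 and IL2RG (0.977, 0.974 and 0.973), for RELA SCFD2, TIPARP and NEK7 (0.937, 0.893 and 0.891), and for RELB CAMK1D, TMCC3 and DUSP5 (0.920, 0.897 and 0.891).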

How the data were processed

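Total RNA from 54 samples was hybridised to Affymetrix Gene 1.0 ST arrays, 2 for each of 9 lines at 0, 8 and 36 h. Per the submitters' processing notes the authors used Affymetrix Expression Console 1.0 with RMA, which leaves deposited log2 values. RMA forces arrays to like distributions, so changes are relative to the bulk of genes. The genome build, the annotation used by the authors and the calcitriol dose are not given in the sources used here. Array data have no read depth, and the number of arrays limits precision.

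Groups came from the cell line and time labels; titles of GM10854 name another line, and the cell line label was used. Of 33297 probe sets, 21214 were in the probe table, 19460 of them with 1 symbol, and 1754 had several symbols or none; 19429 matched a gene ID in RefSeq. No filter on dim probe sets was applied in the main fits, and 0 columns were left unmapped.

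limma 3.58.1 (R 4.3.3, default moderation, two-sided) was fitted to all 19460 probe sets. Tests between kinds of lines and over lines took each line's mean of 2 arrays as 1 replicate. Single lines used 1 fit of 27 groups. The fits were tested on simulated data. Members and pathway lists were chosen with earlier results of these data known. All members were named, and for each member the 3 probe sets with the highest Pearson r over 27 groups. From each list genes called at 36 h over lines or in a single line were named, by size. The limit of 6 a list was applied within each comparison. Genes beyond the 6 largest of a list over all comparisons were thus named after their values were seen. In AG09309 the limit followed the sizes at 36 h, so genes called there only at 8 h, such as CD40 (-0.85), were left out. JUNB and PSMB9 were added outside this limit after their values were seen. Alternatives covered normalization, a filter keeping probe sets with a group mean of at least 6, 1 probe set a gene, moderation, single arrays and lines, title style and the replicate number. Promoter windows and plots used Python 3.11.15 with matplotlib 3.10.9.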

Additional observations from a re-analysis of the deposited data

Results flagged for a closer look

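For each member, the changes at 8 h and at 36 h were examined in the 4 lymphoblastoid, the 5 other and all 9 lines for a line far from the rest, 54 sets in all. A line stood apart in 6, and chance alone marks about 1 in 20 such sets. REL at 36 h in AG09309 (-0.99) stood apart both among the 5 other lines and among all 9. NFKBIE at 8 h stood apart in GM07348 (0.13) among the lymphoblastoid lines and in AG09319 (0.32) among the others. RELA at 8 h stood apart in GM12878 (-0.0545) among the lymphoblastoid lines and in AG09319 (-0.23) among all 9. An array of AG09319 at 8 h is among the 3 that stood apart from their lines, and the cause was not tested.

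The fibroblast lines differed in their changes. NFKBIA changed by -1.497 more in AG09309 than in AG09319 at 8 h and by -1.07 at 36 h, and REL by -1.11 at 36 h, each past the threshold in limma's test of the difference. The comparison was chosen after the values were seen, and the 0 h arrays of AG09309 carried B cell markers.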

How the results depend on the processing

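For single members, 1154 of the alternative values stayed on the same side of the threshold, 38 fell out of it and 13 passed it. Most of these values belong to results that were not called in the main fit, which could not fall out. For NFKBIA, TNFAIP3 and NFKB2 in lymphoblastoid lines, 0, 3 and 5 of 13 fell out at 36 h against 0 h. At 36 h against 8 h 3, 6 and 6 of 13 did. For the 0 h level 1 of 16 fell out for TNIP1, 3 for NFKB1 and 1 for NFKB2. In AG09309 6 of 14 fell out for NFKB2 at 36 h and 4 for REL at 8 h, and 0 for the other calls in single lines. The sign differed from the reported one in 34 of 1205, of which 0 were called in either setting. The count of members higher in lymphoblastoid lines at 36 h was 3, 1 after quantile normalization, and 1 to 3 when single lines were left out. At 36 h against 8 h the 3 members called became 1 after quantile normalization, 0 in the lines of the first title style (titles are written in 2 styles) and 0 to 1 without single lines. At 0 h the 3 members higher in lymphoblastoid lines became 6 without the 3 arrays that stood apart, 0 in the first title style (fewer lines, without GM12878, AG09319 and HepG2), and 2 to 6 without single lines. Without AG09309 they were 5, and without HepG2 6. Calls in single lines at 36 h were 4, 3 to 4 without single arrays, and 7 without the 3 arrays that stood apart. At 8 h they were 3, and 2 to 7 without single arrays, 7 without AG09319 8 h replicate 1. The cause of these shifts was not tested. For these settings the share of all probe sets called is not given here, with 1 exception. After quantile normalization 181 of the 19460 were called higher in lymphoblastoid lines at 36 h against 0 h. Leaving out the AG09309 0 h arrays, chosen after seeing the data, removes every AG09309 change by construction, and the other 8 lines gave 1 call at each time, NFKBIA in HL60.

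The deviations of same-numbered arrays at different times correlated from -0.41 to 0.58 over 27 pairs of times, over 0.1 in 14 and under -0.1 in 9. Lines differed in this. K562 had 0.51, 0.58 and 0.36, GM07348 had 0.23, 0.27 and 0.34, and GM07019 had -0.41, 0.18 and -0.33. What same-numbered arrays have in common was not tested. With a replicate block, where arrays and not lines were the replicates, the lymphoblastoid lines gave 4 members at 36 h. Among them was TNIP1 (adjusted p = 0.0376 in limma's test), which also passed with arrays as replicates and no block (0.0477). With the block the lymphoblastoid lines gave 0 at 8 h and 3 at 36 h against 8 h. The 9 lines gave 0 at both times, and single lines 4 and 3. The share of all probe sets called with the block is not given here. Without detection calls, changes at low levels are not exact folds.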
